A study of Mus musculus with 6 samples.

Results

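Dystroglycan, its sarcoglycan partners and the laminin and nidogen genes of the basement membrane were measured in 4T1, a carcinoma line from the mouse mammary gland. The set holds 9 of the 18193 genes with a probe set of their own, namely Dag1, Sgcb, Sgce, Lama3, Lama5, Lamb1, Lamb3, Lamc1 and Nid1. They were read by every probe set annotated to exactly 1 of these symbols, which gave 24 of the 45037 probe sets on the array. The genes were chosen with the difference between the study's groups already known, so their differences are given as a description and are not tested. Each NFAT1 shRNA sample came from 4T1 cells transduced with a vector expressing an shRNA against NFAT1, a calcium-regulated transcription factor encoded by Nfatc2, and there were 3 such arrays. Each control sample came from 4T1 cells transduced with a control vector and labelled control shRNA, also with 3 arrays. Both groups were selected for 10 days, and an Affymetrix mouse array was run from 200 ng of total RNA per sample. The labels do not give the number of shRNA sequences or clones. They also do not say if the 3 arrays of a group stand for separate cultures, so the spread and every p-value may be technical.

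Laminins are heterotrimers of an alpha, a beta and a gamma chain that assemble into the sheet of the basement membrane. Nidogen links laminin to the collagen network. Dystroglycan is made as 1 precursor and split into an extracellular alpha subunit, whose sugar chains bind laminin, and a membrane-spanning beta subunit, which reaches dystrophin or utrophin inside the cell. Sarcoglycans flank beta-dystroglycan in the membrane. In mammary epithelium, laminin signals through dystroglycan and integrins and supports polarity and tissue-specific gene expression.

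Dag1 and Lamb3 were the members for which every NFAT1 shRNA array lay under every control array. Their promoter windows are shown because the factor targeted in these cells, NFAT1, binds DNA at a GGAAA core. Each window runs from 250 bases before to 50 bases after a start site annotated by RefSeq on GRCm38.p6, printed along the gene's own strand. The capitals mark GGAAA or its reverse complement TTTCC.
Dag1, chr9:108263909-108264208, minus strand: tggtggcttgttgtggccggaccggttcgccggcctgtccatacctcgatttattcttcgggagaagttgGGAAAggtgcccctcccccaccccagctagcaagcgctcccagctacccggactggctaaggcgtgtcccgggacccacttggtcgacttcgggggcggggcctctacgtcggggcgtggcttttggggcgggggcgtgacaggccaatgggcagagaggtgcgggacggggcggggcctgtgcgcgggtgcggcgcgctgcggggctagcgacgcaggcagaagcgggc
Lamb3, chr1:193301744-193302043, plus strand: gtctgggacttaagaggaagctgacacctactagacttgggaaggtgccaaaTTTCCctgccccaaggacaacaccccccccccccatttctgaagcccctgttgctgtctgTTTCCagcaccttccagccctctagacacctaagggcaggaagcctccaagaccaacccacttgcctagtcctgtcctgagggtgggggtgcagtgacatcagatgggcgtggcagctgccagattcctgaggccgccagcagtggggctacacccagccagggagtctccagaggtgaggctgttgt

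The Dag1 window held 1 match to the core, which began 180 bases before the start site. A second annotated Dag1 start, whose window (chr9:108263766-108264065) overlaps the first, had 0 matches. The Lamb3 window held 2 matches, and the window of a second Lamb3 start held 1. Windows were at hand for 6 of the 9 genes. Lama5, Nid1 and Sgcb had 1 match each and Lamb1 had 0, and a match was found in 61.3% of the 32851 mouse windows of this length. The AP-1 motif TGANTCA, searched on both strands as well, had 0 matches in the 8 windows of the members and occurred in 7.8% of all windows. No match of the core overlapped one of AP-1. A match of these letters is not a measured binding site.

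All values are log2 signals made by RMA, a method that subtracts background, equalises the arrays and combines the probes of a probe set. A difference is NFAT1 shRNA minus control shRNA on that scale, with its standard error (SE) from limma. Array medians lay between 5.42 and 5.48, and differences below that level are compressed. The array labelled NFAT1 shRNA 1 stood apart from its group. Across probe sets it correlated with the controls at 0.991 to 0.995 and with NFAT1 shRNA 2 and 3 at 0.986 and 0.985, so member values are also given without it. The targeted gene Nfatc2 was lower on 4 of its 6 probe sets and higher on 2. Its largest difference, on 1439205_at, came from 5.15, 5.43 and 5.29 on the NFAT1 shRNA arrays against 6.05, 6.18 and 5.91 on the control arrays (limma adjusted p = 0.0707). Its brightest probe set, 1426032_at, went the other way without overlap, at 6.19, 6.48 and 6.09 on the NFAT1 shRNA arrays against 5.92, 5.92 and 5.86 on the control arrays (0.251). All 8 mammary epithelial markers examined were above the array medians. Of 5 leukocyte, 4 endothelial, 5 skeletal muscle and 4 fibroblast markers, 2, 1, 1 and 1 were above them. The pan-leukocyte gene Ptprc averaged 2.96 in NFAT1 shRNA cells and 2.95 in control cells, while Csf1r averaged 8.09 in NFAT1 shRNA cells and 8.26 in control cells. Cd68 read 6.23, 7.75 and 7.92 on the NFAT1 shRNA arrays and 6.22, 6.85 and 6.55 on the control arrays. The fibroblast marker Pdgfra averaged 7.71 in NFAT1 shRNA cells and 7.23 in control cells, and the part of other cell types in the values was not tested.

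Dag1, which encodes both dystroglycan subunits, was lower in NFAT1 shRNA cells on all 4 of its probe sets. On the brightest, 1426778_at, the NFAT1 shRNA arrays read 9.18, 9.51 and 9.45 and the control arrays read 10.92, 11.30 and 11.02. The groups were separated by 1.40, while the arrays within a group spanned 0.33 in NFAT1 shRNA cells and 0.38 in control cells. Means were 9.38 ± 0.17 in NFAT1 shRNA cells and 11.08 ± 0.20 in control cells (SD, n = 3 each), so NFAT1 shRNA minus control was -1.70 ± 0.14 (SE), or 30.9% of the control level. This was the 39th lowest difference among the 45037 probe sets.

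The other Dag1 probe sets gave nearly the same picture from lower signals. On 1423872_a_at the NFAT1 shRNA arrays read 7.47, 7.78 and 7.58, against 8.95, 9.25 and 9.04 on the control arrays, a difference of -1.47 ± 0.12 (SE). On 1456131_x_at they read 7.42, 7.65 and 7.41 in NFAT1 shRNA cells and 8.84, 9.13 and 8.97 in control cells, a difference of -1.49 ± 0.11. On 1426779_x_at the values were 7.76, 8.09 and 7.78 in NFAT1 shRNA cells and 9.12, 9.46 and 9.16 in control cells, a difference of -1.37 ± 0.14. None of the 4 had overlapping groups, and the remaining level ran from 30.9% to 38.7% of control. Array 2 was the highest of its group on each of these probe sets, in both groups. These probe sets read transcripts of 1 gene, so they are not independent of each other, and an _x_at set may also read similar sequences elsewhere. NFAT1 shRNA 1, although close to the controls across the array, had the lowest or nearly the lowest Dag1 signal of its group, and without it the 4 differences were -1.60, -1.31, -1.40 and -1.45. In bulk RNA, fewer cells expressing a gene and less RNA per cell cannot be told apart.

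**Figure D1:**
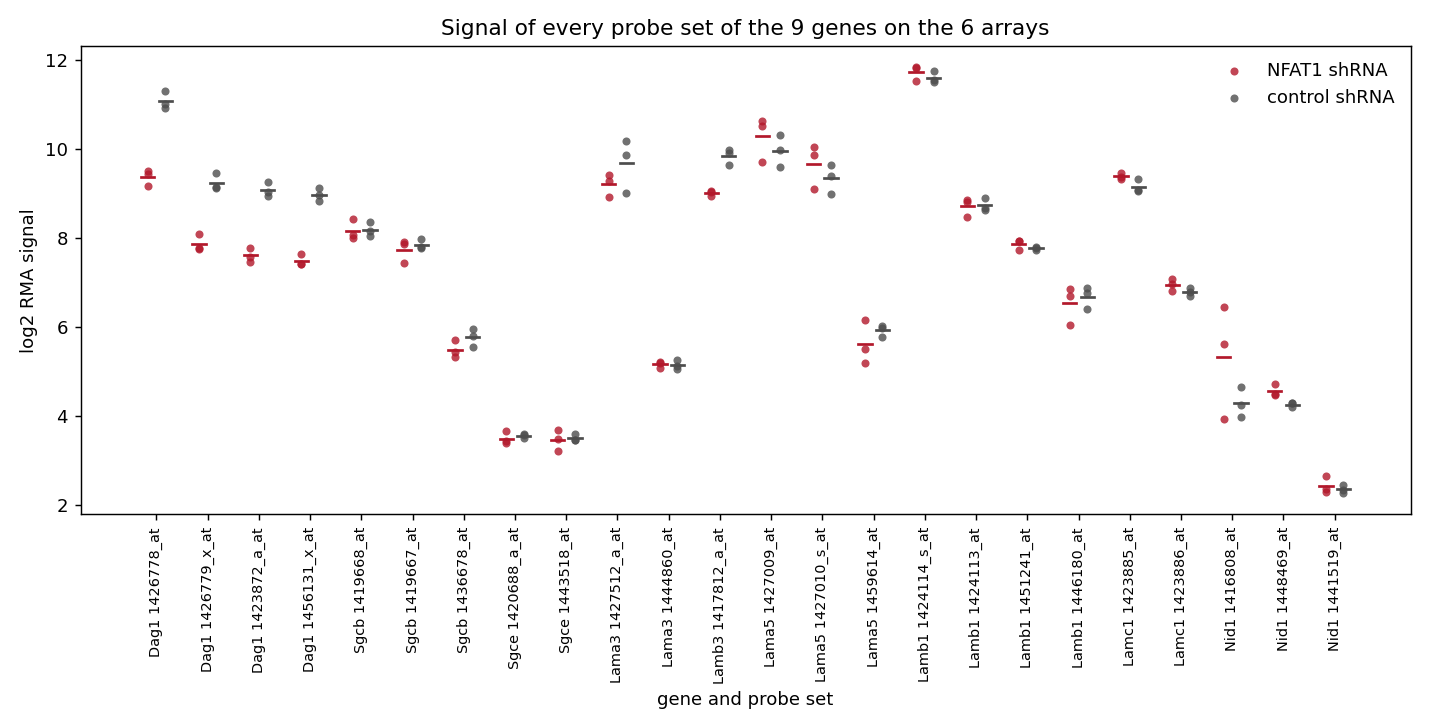
Log2 RMA signal of the 24 probe sets of the 9 genes (x axis, gene and probe set) on each array, with NFAT1 shRNA in red at the left and control shRNA in grey at the right of each pair. Points are arrays and lines are group means; the 4 Dag1 probe sets and Lamb3 show the widest clear gaps, while Nid1 1416808_at shows the widest spread within NFAT1 shRNA cells.

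Sgcb, which encodes beta-sarcoglycan, was close to control on its 2 brighter probe sets. On 1419668_at the NFAT1 shRNA arrays read 8.07, 8.44 and 8.0, against 8.04, 8.37 and 8.15 on the control arrays, a difference of -0.02 ± 0.15 (SE). The groups covered almost the same range. On 1419667_at the difference was -0.11 ± 0.14, and on the dimmer 1436678_at, near the array medians, it was -0.28 ± 0.14 with overlapping groups. Sgce, which encodes epsilon-sarcoglycan, the widely expressed relative of the muscle alpha-sarcoglycan, gave signals of 3.22 to 3.69 on NFAT1 shRNA arrays and 3.46 to 3.60 on control arrays over its 2 probe sets. These lie far below the array medians, where a difference can be understated. The lowest difference of the sarcoglycan members, -0.28, compares with -1.70 to -1.37 for Dag1.

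Lama3 and Lamb3 encode the alpha and beta chains of laminin-332, the laminin that anchors epithelial cells through hemidesmosomes. Lamb3 was read by 1 probe set, 1417812_a_at, at 9.06, 9.03 and 8.95 on the NFAT1 shRNA arrays and 9.99, 9.64 and 9.91 on the control arrays. The groups did not overlap, and the NFAT1 shRNA arrays lay within 0.11 of each other. Means were 9.01 ± 0.06 in NFAT1 shRNA cells and 9.85 ± 0.19 in control cells (SD, n = 3 each), so NFAT1 shRNA minus control was -0.83 ± 0.11 (SE), or 56.2% of the control level. Without NFAT1 shRNA 1 the difference was -0.85.

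Lama3 read 9.41, 9.28 and 8.93 on the NFAT1 shRNA arrays and 10.18, 9.02 and 9.86 on the control arrays of 1427512_a_at. Control 2 fell among the NFAT1 shRNA arrays, so the groups overlapped, and the control arrays spanned 1.16. The difference was -0.48 ± 0.30 (SE), and -0.58 without NFAT1 shRNA 1. On 1444860_at the mean was 5.17 ± 0.07 in NFAT1 shRNA cells and 5.16 ± 0.10 in control cells (SD, n = 3 each), below the array medians.

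The basal keratin gene Krt14, 1 of the 8 epithelial markers, moved in the same direction as Lamb3. It read 9.38, 7.46 and 8.40 on the NFAT1 shRNA arrays against 10.67, 10.38 and 10.56 on the control arrays, a difference of -2.12 ± 0.44 (SE, limma adjusted p = 0.137). The groups did not overlap. The other 7 epithelial markers averaged 11.57 to 11.84 on NFAT1 shRNA arrays and 11.66 to 11.73 on control arrays, with 4 of them higher and 3 lower by their means. With Krt14 the list averaged 11.30 to 11.38 on NFAT1 shRNA arrays and 11.54 to 11.57 on control arrays. The part of basal cell content in the laminin-332 values was not tested.

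Lama5, Lamb1 and Lamc1 encode the chains of laminin-511, a laminin found widely in epithelial and vascular basement membranes. Lama5, the alpha chain, read 9.72, 10.64 and 10.52 on the NFAT1 shRNA arrays and 9.59, 10.31 and 9.99 on the control arrays of 1427009_at. Array 1 was the lowest of its group in both groups, and the groups overlapped over much of their range. The difference was 0.33 ± 0.28 (SE), and 0.61 without NFAT1 shRNA 1. The probe set 1427010_s_at gave nearly the same values, with 9.11, 10.05 and 9.87 in NFAT1 shRNA cells and 8.99, 9.64 and 9.39 in control cells, a difference of 0.34 ± 0.27. The remaining one, 1459614_at, went the other way by -0.32 ± 0.24 at a signal near the array medians. The Lama5 probe sets therefore disagreed in direction, and in none of them was the difference clear of the spread between arrays.

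Lamb1, the beta chain, had its brightest reading on 1424114_s_at, at 11.52, 11.84 and 11.82 on the NFAT1 shRNA arrays against 11.50, 11.75 and 11.55 on the control arrays. The groups overlapped, and the difference was 0.13 ± 0.12 (SE). The other 3 Lamb1 probe sets differed by -0.02 ± 0.13, 0.10 ± 0.09 and -0.14 ± 0.23, with overlapping groups in each. Lamc1, the gamma chain shared by most laminins, read 9.33, 9.46 and 9.38 on the NFAT1 shRNA arrays and 9.06, 9.32 and 9.08 on the control arrays of 1423885_at. These groups just failed to touch, since NFAT1 shRNA 1 at 9.33 lay beside control 2 at 9.32, and the difference was 0.23 ± 0.10. On 1423886_at it was 0.16 ± 0.10, with overlap.

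**Figure D2:**
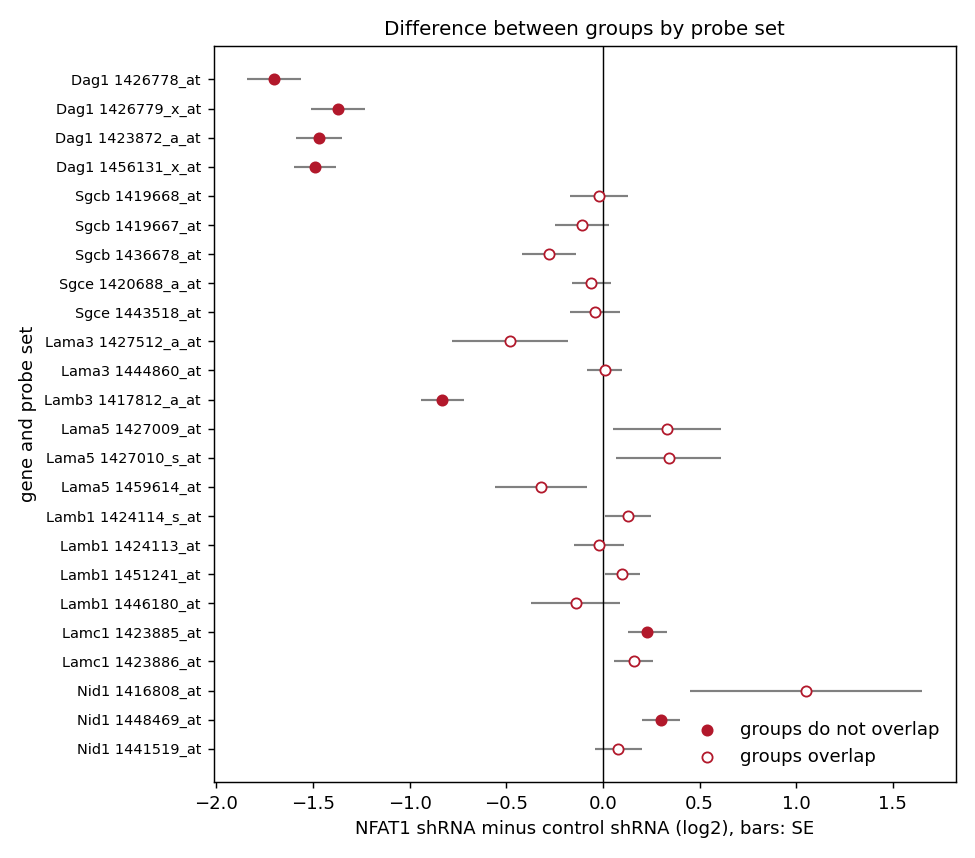
Difference between NFAT1 shRNA and control shRNA arrays on the log2 scale (x axis) for each probe set (rows), with SE bars; filled points mark probe sets whose groups do not overlap. Dag1 lies between -1.70 and -1.37 and Lamb3 at -0.83, while the laminin-511 chains lie between -0.32 and 0.34.

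Nid1, which encodes the linker nidogen-1, was dim and uneven. On 1416808_at the NFAT1 shRNA arrays read 3.94, 5.62 and 6.46, against 3.98, 4.65 and 4.25 on the control arrays. NFAT1 shRNA 1 lay below every control array, while NFAT1 shRNA 2 and 3 lay above all of them. The mean difference was 1.05 ± 0.60 (SE), with an SD of 1.29 among the NFAT1 shRNA arrays, and it was 1.75 without NFAT1 shRNA 1. On 1448469_at the NFAT1 shRNA arrays read 4.50, 4.48 and 4.72 and the control arrays read 4.20, 4.29 and 4.29. The groups did not overlap there, with a difference of 0.30 ± 0.10 at a signal under the array medians. The third probe set read at most 2.65 on any array and differed by 0.08 ± 0.12.

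**Figure D3:**
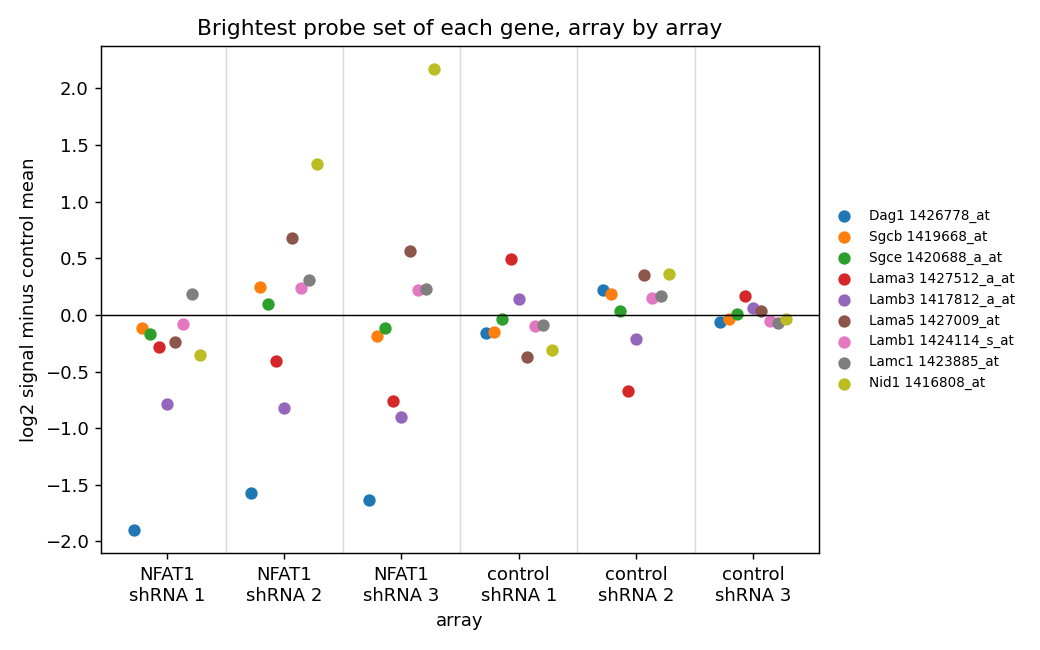
Log2 signal of the brightest probe set of each of the 9 genes minus its control mean (y axis) on each array (x axis). Dag1 and Lamb3 are low on all 3 NFAT1 shRNA arrays, while Nid1 and Lama5 are at or under the control mean on NFAT1 shRNA 1 and above it on the other two.

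In the limma fit over all probe sets, 0.200% passed an adjusted p under 0.05. Of the 24 member probe sets 4 passed, all of them Dag1 and all lower, and 0.124% of all probe sets passed as lower. Because these genes were chosen from the same comparison, nothing is read from this count. Lamb3 did not pass in this fit (limma adjusted p = 0.0633). It passed when only the brightest probe set of each gene entered (0.0451), where 0.511% of all probe sets passed. The count of 4 rested on the arrays used. It was 0 without control 1, control 2, control 3 or NFAT1 shRNA 2, and in each of these settings 0 of all probe sets passed. At an unadjusted p under 0.05 the member counts were then 6, 8, 6 and 8, against 3992, 5086, 4251 and 4290 of all probe sets. With NFAT1 shRNA 3 left out 3 passed, all Dag1, where 0.178% of all probe sets passed. With NFAT1 shRNA 1 left out 6 passed, as Lamb3 and Nid1 1416808_at joined, and 12.9% of all probe sets passed in that setting. The size of the Dag1 differences depended far less on single arrays, at -1.78 to -1.58 on 1426778_at over the 16 other settings tried. The groups did not overlap on 7 of the 24 member probe sets, 5 lower and 2 higher, where 20.9% of all probe sets had groups that do not overlap, 9.33% lower and 11.6% higher. The median difference of the 24 was -0.03, and 0.02 over all probe sets. Of the members, 16 probe sets had a mean over all arrays of at least 6. No filter on signal was applied, so all 24 were in the fit.

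The genes whose profile over the 6 arrays was most like that of Dag1 were sought among 8211 genes with a mean signal of at least 7. Likeness was the root mean square difference between log2 profiles, each centred on its own control mean. The nearest was Carhsp1, an RNA-binding phosphoprotein gene, at 0.24, with 7.14, 7.17 and 7.65 on the NFAT1 shRNA arrays against 8.81, 8.81 and 8.83 on the control arrays. The drug efflux transporter gene Abcg2 followed at 0.27, the monooxygenase family gene Moxd1 at 0.29, the processing body gene Lsm14a at 0.30 and the methyltransferase gene Carnmt1 at 0.32. Their differences lay between -1.88 and -1.43, close to the -1.70 of Dag1. None of the other members was among these 5, and nothing is read from this. Nid1 and Sgce lay under the signal limit of 7 on every probe set and could not enter. The lowest difference among the rest was the -0.83 of Lamb3, far from that of Dag1.

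Around the 9 genes, 62 further genes of basement membrane, dystrophin complex and laminin adhesion were listed, of which 54 were measured by 119 probe sets. With limma 0 of the 119 passed an adjusted p under 0.05 over all probe sets, while 9 were higher and 13 lower at an unadjusted p under 0.05, a threshold met by 15.7% of all probe sets. Without NFAT1 shRNA 1, 3 were higher and 6 lower at an adjusted p under 0.05, together 7.56%, where 12.9% of all probe sets passed. The groups did not overlap on 24 of the 119 (20.2%), 11 higher and 13 lower, close to the 20.9% over all probe sets. The median difference was 0.03.

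Of the matrix partners of laminin, 13 genes with 24 probe sets, 18 probe sets had a higher mean in NFAT1 shRNA cells and 6 a lower one, with a median of 0.13. Over all probe sets 24399 had a higher mean and 20638 a lower one, with a median of 0.02. A mean signal of at least 6 was reached by 13 of the 24, and probe sets of 1 gene are not independent. Col18a1, the collagen XVIII gene from whose product endostatin is cut, read 10.15, 10.64 and 10.16 on the NFAT1 shRNA arrays and 9.0, 9.81 and 9.43 on the control arrays of 1426955_at. The difference was 0.90 (limma adjusted p = 0.186), and its second probe set differed by 0.95 (0.115), with no overlap in either. Sparc, a collagen-binding matricellular protein gene, read 8.29, 8.81 and 9.47 on the NFAT1 shRNA arrays against 9.50, 9.92 and 9.68 on the control arrays of 1448392_at. Its difference was -0.84 (limma adjusted p = 0.264), with the arrays of the groups almost touching at 9.47 and 9.50. On the nearly as bright Sparc probe set 1416589_at it was -0.81 with overlapping groups (0.296), and on the dimmer 1458204_at it was 0.06 (0.787). The collagen IV chain gene Col4a2 differed by -0.35 (limma adjusted p = 0.229). The other 5 laminin chain genes measured, with 7 probe sets, had differences of -0.14 to 0.49, and of these probe sets 1 had a mean signal of at least 6.

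Alpha-dystroglycan binds laminin only through sugars added by a chain of enzymes in the endoplasmic reticulum and Golgi. Of 18 such genes 14 were measured by 22 probe sets. The groups did not overlap on 6 of these (27.3%), each of them lower in NFAT1 shRNA cells. Of all probe sets, 20.9% did not overlap and 9.33% were lower without overlap. The 6 came from B3galnt2, Pomgnt2 and B4gat1 alone, and probe sets of the same gene are not independent. Of the 22, 0 were called by limma, with 4 lower at an unadjusted p under 0.05, where 3447 of all 45037 probe sets were lower. B3galnt2, which adds N-acetylgalactosamine to the core glycan, read 7.86, 7.48 and 7.84 on the NFAT1 shRNA arrays and 8.25, 8.14 and 8.22 on the control arrays of 1434135_at. The difference was -0.48 (limma adjusted p = 0.186). Another of its probe sets, 1454842_a_at, differed by -0.76 (0.0987), and the dim 1460105_at by 0.08 (0.715). Pomgnt2, which adds the first N-acetylglucosamine, differed by -0.25 (0.319). The median of this list was -0.12.

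The dystrophin complex genes listed, 9 measured with 30 probe sets, differed by -0.18 to 0.49, with a median of 0.05. Utrn, which encodes utrophin, the intracellular partner of dystroglycan outside muscle, read 8.90, 9.53 and 9.77 on the NFAT1 shRNA arrays and 9.22, 9.69 and 9.44 on the control arrays of its brightest probe set, 1452222_at. These groups overlapped, and the difference was -0.05 (limma adjusted p = 0.934). Utrn was picked after its values were seen.

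Other laminin receptors, 10 genes with 28 probe sets, had a median difference of -0.03, with 16 lower means and 12 higher. At an unadjusted limma p under 0.05, 4 were lower and 2 higher, against 3447 and 3618 of all probe sets. The brightest probe sets of Itgb1 and Sdc1 differed by -0.34 and -0.50 (limma adjusted p = 0.28 and 0.376), with overlapping groups. The other Sdc1 probe sets differed by -0.52 without overlap on 1437279_x_at (0.301), and by -0.41 and -0.37 with overlap. Further Itgb1 probe sets differed by -0.31 and -0.24 with overlap. Those under the array medians differed by -0.31 and -0.47 without overlap and by 0.14 with overlap. Both genes were picked after their values were seen. Sdc4, a heparan sulfate proteoglycan of adhesion sites, read 11.46, 11.67 and 11.40 on the NFAT1 shRNA arrays and 11.08, 11.19 and 11.10 on the control arrays of 1417654_at, a difference of 0.39 (limma adjusted p = 0.186). Itgb4, the integrin chain of hemidesmosomes that binds laminin-332, differed by 0.49 (0.319), with NFAT1 shRNA 2 at 10.31 well above the 9.55 and 9.57 of the other two. Of the 3 hemidesmosome genes, Dst, whose products link keratin or actin filaments to adhesion sites, had the lowest difference of all 119 probe sets. On 1421117_at it read 7.34, 5.96 and 6.04 on the NFAT1 shRNA arrays and 8.03, 7.88 and 7.99 on the control arrays, a difference of -1.52 (limma adjusted p = 0.166). This probe set was singled out after its values were seen, and the brightest Dst probe set, 1423626_at, went the other way by 0.22 (0.682). The remaining Dst probe sets differed by -0.42 without overlap on 1450119_at and by 0.14 with overlap on 1421276_a_at (limma adjusted p = 0.25 and 0.659).

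**Figure D4:**
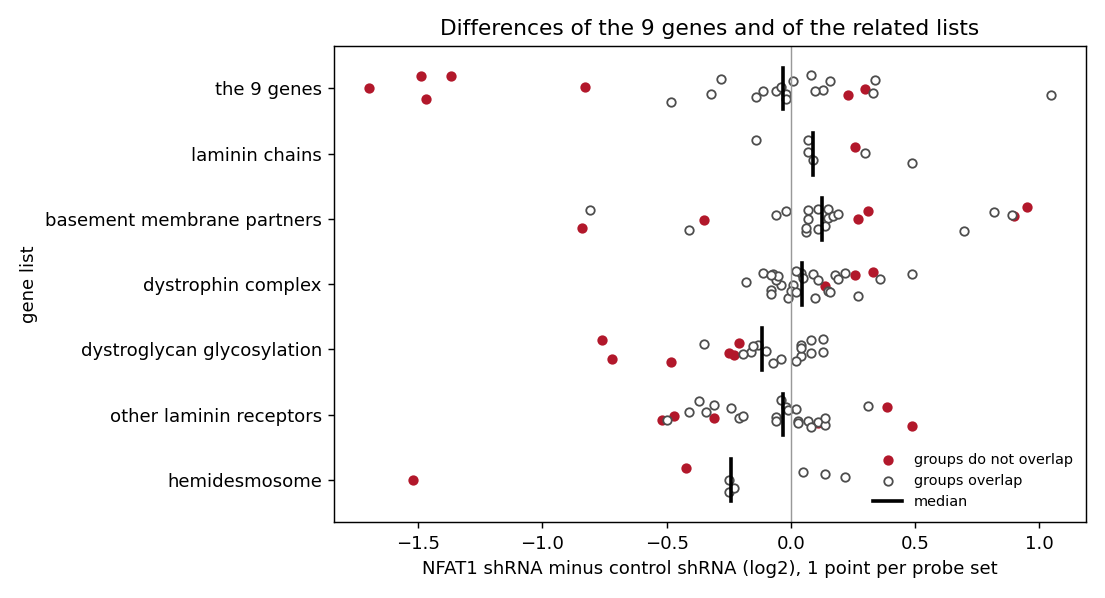
Difference between NFAT1 shRNA and control shRNA on the log2 scale (x axis) for each probe set of the 9 genes and of the 6 related lists (rows), with filled points where the groups do not overlap and a bar at the median. List medians lie between -0.24 and 0.13, and the 4 Dag1 probe sets and 1 Dst probe set lie at the far left.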

How the data were processed

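RNA of 6 samples of 4T1 cells, 3 with NFAT1 shRNA and 3 with control shRNA, was measured on Affymetrix mouse arrays, and groups and replicate numbers come from the labels. The deposited values are log2 signals. Per the submitters' processing notes, the authors used RMA, in a version not given in the sources used here. The quantile normalization within RMA would hide a shift common to most transcripts.

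Probe sets were named from the platform annotation, in which 34945 of 45037 had 1 symbol. Groups were compared over all probe sets, without a filter or covariates, with limma 3.58.1 (lmFit, eBayes; R 4.3.3) and Benjamini-Hochberg adjustment, and called means an adjusted p under 0.05, 2-sided. The same code was tested on simulated data. The 9 genes, the 6 related lists and the naming rule were chosen with earlier results of these data known. Related genes were named if called, or otherwise as up to 2 genes each way per list with the largest difference, provided the groups did not overlap and the gene's brightest probe set averaged at least 6. Other related genes are marked as chosen after their values were seen. Single cell type markers, Krt14 among them, and further probe sets of named genes were given outside this rule, with their values known. Promoter windows are from RefSeq and were searched with Python 3.11.15. The alternatives were 2 filters on signal, other scaling, array weights, another variance prior, a block for the replicate number, fewer probe sets and leaving out arrays. Precision is limited by the number of arrays.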

Additional observations from a re-analysis of the deposited data

How the results depend on the processing

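The count of member probe sets called was 4 in the main fit, 4 or 5 under the signal filters, both rescalings, the trended and robust prior, array weights and the replicate number as a block, 2 with the brightest probe set per gene (Dag1 and Lamb3) and 1 without _s_at, _x_at and _a_at probe sets (Dag1 1426778_at). The last 2 settings leave 9 and 16 member probe sets, and 0.511% and 0.216% of all probe sets passed in them. Leaving out 1 array gave 0 to 6. Over all probe sets 90 were called, against 2279 with array weights, 1432 with the replicate block and 0 to 5794 without 1 array. Related probe sets called were 0, against 6 with array weights, 5 with the replicate block and 0 to 9 without 1 array. Without control 3 and NFAT1 shRNA 1 together, chosen after seeing the data, limma called 0 of all, 0 of the member and 0 of the related probe sets (9273, 8 and 21 at an unadjusted p under 0.05). The cause of these changes was not tested.

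With the replicate block 5 member probe sets were called, as Lamb3 (-0.83) joined those of Dag1, where 3.18% of all probe sets passed. Same-numbered arrays deviated from their group means with correlations of 0.62, 0.51 and 0.05. NFAT1 shRNA 1 with control 2 gave -0.58, and NFAT1 shRNA 2 with control 1 gave -0.52. NFAT1 shRNA 3 correlated best with control 2 (0.27). Control 3 was the middle array of its group on 49.7% of probe sets, so its deviation was often the smallest of its group. The 0.05 therefore cannot decide if the numbers mark pairs, and pairing was not tested. The main fit used no block. The 4 Dag1 probe sets were the only member probe sets called in the main fit. They kept their sign in every setting that could give them a value. Their groups lay 1.03 to 1.40 apart, so leaving out or weighting arrays could not reverse the sign, and nothing is read from this. Some members that were not called changed sign, such as Lama3 1444860_at (-0.03 to 0.07), Sgcb 1419668_at (-0.15 to 0.08) and Lamb1 1424113_at (-0.1 to 0.1). Dag1 stayed between -1.78 and -1.26 over its 4 probe sets, Lamb3 between -0.94 and -0.76 and Nid1 1416808_at between 0.48 and 1.75. Lamb3 was called in 4 of the 15 settings beyond the main fit that could give it a value. These were array weights, the replicate block, the brightest probe set per gene and leaving out NFAT1 shRNA 1. Of all probe sets 5.06%, 3.18%, 0.511% and 12.9% passed in them, against 0.200% in the main fit, so nothing is read from this count. Signals under the array medians limit Sgce, Nid1 and 1 Lama3 probe set.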
